A study of Mus musculus with 58 samples.

Results

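Cohorts M2 and M4 are 2 of the 4 labelled cohorts of male mice in a study of repeated mild head injury, and their libraries were chosen by that label alone: 6 of M2 and 5 of M4, of 58 in all. The question was which genes differed between them once the condition of each mouse was taken into account. All 11 libraries came from C57BL/6J male mice without a labelled transgene, aged 2 to 4 months at the start. RNA came from the somatosensory cortex about 1 month after the last of 5 once-daily procedures. The design text gives about 18 and 34 days for that time and does not tie either to a mouse, so day and cohort cannot be separated here. A procedure was a closed head injury (5xCHI) or a sham injury, followed after 30 min by intraperitoneal SB239063 (SB, 20 mg/kg), an inhibitor of the stress kinase p38 MAPK, or by its vehicle, physiological saline. Libraries are named below by the number that ends their labelled library name. In M2, libraries 7 and 8 were of injured SB mice, 9 and 10 of injured vehicle mice, 11 of sham vehicle and 12 of sham SB. In M4, libraries 56 and 57 were of injured SB mice, 58 and 59 of injured vehicle mice and 61 of sham vehicle. M4 thus has no sham SB library. The labels do not say what set the cohorts apart at the bench, and the cohort cannot be told apart from the run of library numbers. The labels do not say that each library is a separate animal, so p-values measure the spread between libraries.

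Cortex holds excitatory projection neurons, inhibitory interneurons, oligodendrocytes, astrocytes, microglia and vessels, and bulk RNA mixes them all. Some transcripts are retained in the nucleus, such as long noncoding RNAs and partly spliced messages of splicing regulators, whereas ribosomal protein messages are short and cytoplasmic. Sterol synthesis is controlled as a unit by the SREBP transcription factors, and chaperones of the endoplasmic reticulum (ER) by the unfolded protein response.

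The libraries held the markers of cortex. Slc17a7, the vesicular glutamate transporter of cortical projection neurons, lay between 1400 and 1505 CPM (counts scaled to library size, with TMM factors) in M2 and between 1203 and 1425 in M4. Summed over the 9636 genes of the table, libraries held 34607574 to 45049672 counts in M2 and 28344848 to 37949318 in M4. The log2 total differed by -0.26 within conditions, M4 minus M2 (exact two-sided permutation test within conditions, p = 0.0833 over 72 arrangements, smallest possible p 0.0278). Library 8 of M2 and library 56 of M4 stood apart by genes of neighbouring tissue, as set out below with their values, so counts are also given without them.

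M4 differed from M2 in 1249 of 9636 genes (13.0%) by edgeR's quasi-likelihood test at a Benjamini-Hochberg adjusted p of 0.05, with 605 genes higher in M4 (6.28%) and 644 lower (6.68%). The differences were small: the median log2 fold change was 0.39 among the higher and -0.32 among the lower genes, 185 of the 1249 reached 0.5 in size and 4 reached 1. Among all genes, 666 had every M4 library above every M2 library (6.91%) and 795 every M4 library below (8.25%). With library totals as the only scaling, 908 genes were higher and 427 lower, so that 68.0% of the called genes were higher in place of 48.4%.

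The number of genes called rested on single libraries. Without library 56 of M4 it was 310 higher and 159 lower, without library 61 of M4 358 and 399, without library 8 of M2 293 and 292, and without library 9 of M2 369 and 404. With libraries 8 and 56 both left out, 112 genes were higher and 52 lower. Of the called genes, 209 of the 605 higher and 140 of the 644 lower were called whichever of the 11 libraries was left out, and no called gene changed sign in any of these fits.

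On the first principal component of the 11 libraries, 44.8% of the variance, all M2 libraries lay between -15.7 and -3.93 and all M4 libraries between 8.89 and 18.0. Cohort accounted for 87.7% of that component and condition, beyond cohort, for 4.14%. On the second component (16.4%) cohort accounted for 0.0103% and condition, beyond cohort, for 29.5%. With only 11 libraries spread over the conditions, unrelated values would also give condition a sizeable share. The 29.5% therefore does not show that this component followed condition.

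**Figure D1:**
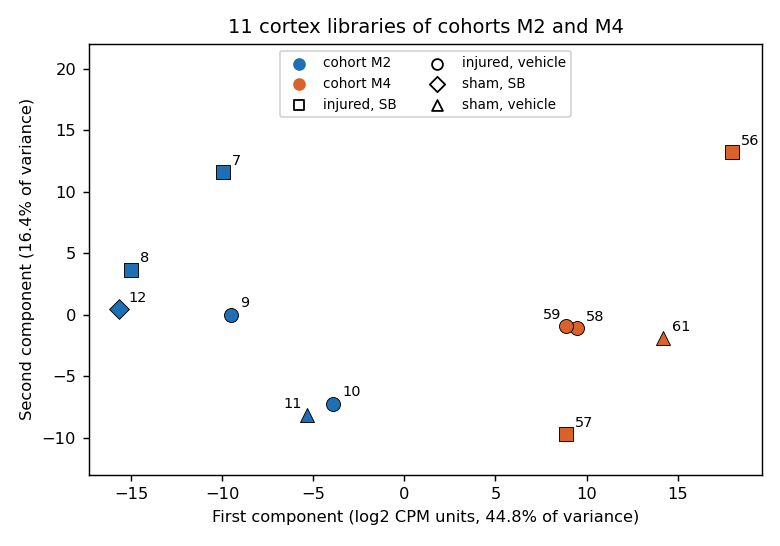
First and second principal components (log2 CPM units) of the 11 libraries, coloured by cohort, with a symbol for each condition and the library number beside it. All M2 libraries lie at -3.93 or below on the first axis and all M4 libraries at 8.89 or above; library 56 lies farthest right at 18.0.

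The gene of smallest p was Zcchc7, a zinc knuckle protein of nuclear RNA surveillance. Its level was 58.9, 53.5, 49.5, 62.0, 63.2 and 49.4 CPM in libraries 7 to 12 and 97.0, 97.7, 87.6, 104.4 and 109.7 CPM in libraries 56, 57, 58, 59 and 61. No M4 value reached into the M2 range, and the means were 56.1 ± 6.16 (SD, n = 6) and 99.3 ± 8.34 CPM (SD, n = 5). The log2 fold change was 0.80 (SE 0.12, adjusted p = 0.000158), and the differences were 0.79 in injured SB, 0.79 in injured vehicle and 0.79 in sham vehicle libraries. M1 and M3, the other male cohorts, lay between at 69.8 ± 4.10 and 75.8 ± 14.4 CPM (SD, n = 6 each).

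Other genes of smallest p that were higher in M4 were Ist1 (0.39), which acts in ESCRT membrane scission, Cfap69 (0.65) and Sdccag8 (0.46) of cilia and centrosomes, Klhl32 (0.58), Amt (0.48) of the mitochondrial glycine cleavage system, Mmaa (0.50) of cobalamin handling and Ctnnal1 (0.81), together with the RNA-processing genes Rbm39, Prpf38b, Nktr and Srek1 described below (log2 fold changes; adjusted p from 0.000426 to 0.00113). All 12 of these genes, Zcchc7 included, had every M4 library above every M2 library and passed in each of the 11 fits without a library. They also passed with libraries 8 and 56 both left out (adjusted p from 0.00397 to 0.0277).

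Among the lower genes of smallest p, Slitrk1, a synaptic adhesion protein of neurons, fell from 149.7 ± 6.91 CPM in M2 to 92.0 ± 6.28 CPM in M4 (SD, n = 6 and 5; log2 fold change -0.67, SE 0.11, adjusted p = 0.000426). Its M2 libraries lay between 137.5 and 157.4 CPM and its M4 libraries between 82.5 and 99.3 CPM, without overlap. The semaphorin Sema7a, an axon growth cue, differed by -0.54 (SE 0.09, adjusted p = 0.000426), and M2 libraries lay between 239.8 and 298.1 and M4 libraries between 172.0 and 210.4 CPM. Others of the 12 lower genes of smallest p were the sterol and lipid enzymes Hsd17b7 and Acly (-0.41) and the sterol sensor partner Insig1, the channel genes Cacna1i, Kcnh1 and Scn2b (-0.36), Tril (-0.42), which takes part in Toll-like receptor signalling, and Mlip (-0.46). All 12 passed in each of the 11 fits without a library and with libraries 8 and 56 both left out.

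**Figure D2:**
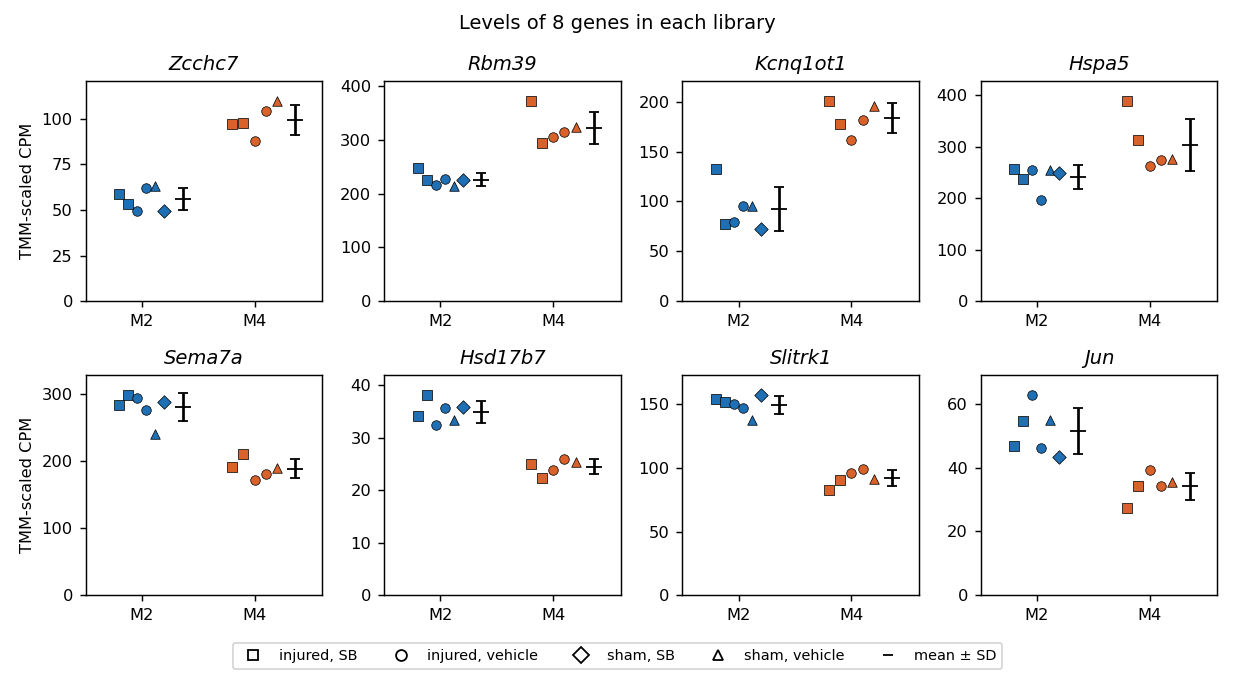
TMM-scaled CPM of 8 genes in each library of M2 and M4 (symbols by condition, bars mean ± SD, n = 6 and 5; each vertical axis starts at 0). The M4 libraries lie above all M2 libraries for Zcchc7, Rbm39, Kcnq1ot1 and Hspa5 and below them for Sema7a, Hsd17b7, Slitrk1 and Jun.

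Of the genes with the largest fold changes, Rreb1, a zinc finger transcription factor, was higher in every M4 library (75.9 to 133.7 CPM) than in any M2 library (28.7 to 69.8 CPM; log2 fold change 1.12, SE 0.34, adjusted p = 0.0254), but did not pass without library 8 (adjusted p = 0.0759). Col9a3, a collagen chain, had the largest rise (1.39, SE 0.47, adjusted p = 0.0428), which came from 1 library: 125.1 CPM in library 56 against 8.35 to 17.1 CPM in the other 10. Without that library its log2 fold change was 0.25 (adjusted p = 0.734).

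Long noncoding RNAs, many of them retained in the nucleus, were higher in M4. Of 14 measured, 10 were higher and 1 lower in M4, beside 6.28% and 6.68% of all genes. The list's median log2 fold change was 0.55 beside -0.0046 over all 9636 genes. Summed, they took 0.756% to 1.23% of counts in the M2 libraries and 1.45% to 1.89% in the M4 libraries, with no overlap. Without library 56, 9 were higher and 1 lower; without library 8, 5 and 1; and with both left out, 2 and 0, with medians of 0.56, 0.52 and 0.50.

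Kcnq1ot1, the antisense transcript that silences an imprinted domain, stood at 132.8, 77.3, 79.0, 95.2, 95.6 and 72.6 CPM in M2 and at 200.5, 177.4, 162.0, 181.8 and 195.6 CPM in M4. The lowest M4 value was above the highest M2 value, that of library 7 (1.92-fold higher; log2 fold change 0.94, SE 0.18, adjusted p = 0.00140). Snhg11, a neuronal small nucleolar RNA host gene, lay between 1516 and 2446 CPM in M2 and between 3015 and 3994 CPM in M4 (0.75, SE 0.16, adjusted p = 0.00269). Meg3, a maternally expressed imprinted RNA and the most abundant of those named here, averaged 4331 ± 1149 and 7784 ± 979 CPM (SD, n = 6 and 5; log2 fold change 0.78, SE 0.19, adjusted p = 0.00609). Neat1, the scaffold of nuclear paraspeckles, differed by 0.83 (adjusted p = 0.0208) and Miat by 0.62 (adjusted p = 0.0220). Of the small nucleolar RNA hosts, Gas5 differed by 0.55 (adjusted p = 0.00576), Snhg12 by 0.54 and Snhg14 by 0.54, and of the imprinted cluster of Meg3, Rian by 0.37 and Mirg by 0.65. The exception was Peg13, an imprinted RNA within Trappc9, which was lower in M4 (347.4 to 423.4 CPM) than in M2 (480.5 to 534.0 CPM; -0.31, SE 0.07, adjusted p = 0.00545). Kcnq1ot1, Snhg14, Peg13, Meg3, Rian and Mirg overlap or neighbour other transcripts, and the strand setting of the counting is not given, so their counts could include those.

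Regulators of splicing moved the same way. Of 20 measured SR proteins, Clk kinases, which phosphorylate them, and Luc7-like and Tra2 proteins, 14 were higher in M4 and 0 lower (median 0.32), and of 114 genes in the wider splicing factor families 38 were higher and 2 lower, Snrnp200 and Prpf8 of the spliceosome core (median 0.18). Without library 56 these counts were 10 and 0, and 28 and 0; with libraries 8 and 56 both left out they were 5 and 0, and 14 and 0. Over all genes 6.28% were higher and 6.68% lower. Both families were put together after the values had been seen.

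Rbm39, a partner of the splicing factor U2AF, stood at 247.8, 225.2, 215.1, 227.8, 213.7 and 225.1 CPM in M2 and at 371.6, 294.2, 304.2, 314.1 and 323.8 CPM in M4 (log2 fold change 0.49, SE 0.08, adjusted p = 0.000441). The M2 libraries lay within a narrow range, and the M4 libraries were all above it, library 56 most. Luc7l3, a U1 snRNP protein, lay between 195.1 and 282.5 CPM in M2 and between 297.3 and 407.1 CPM in M4 (0.62, SE 0.13, adjusted p = 0.00236). Clk4 differed by 0.56 (adjusted p = 0.00182), Tra2a by 0.55 (adjusted p = 0.00140), Prpf38b by 0.62, Nktr, a cyclophilin with an SR-like tail, by 0.72, and Srek1 by 0.56. Srsf11 (0.56), Luc7l2 (0.48), Clk1 (0.42), Srsf6 (0.36) and Srsf7 (0.33) passed as well, each higher. Hnrnpa1, which often opposes SR proteins, was also higher, by 0.32 (adjusted p = 0.00119), with 249.8 to 282.3 CPM in M2 and 321.7 to 355.6 CPM in M4.

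Ribosomal protein messages were higher in M4 as a group. Of 77 measured, 19 passed, all higher, beside 6.28% of all genes called higher. A value above 0 was found in 76, and the median was 0.21. In 36 of the 77 every M4 library was above every M2 library, beside 6.91% of all genes. The summed share of the 77 was 1.02% to 1.08% of counts in M2 and 1.19% to 1.44% in M4, the highest in library 56. Only 1 of the 77 passed without library 56 (median 0.16), 8 without library 8 and 0 with both left out (median 0.15). Rps19, of the small subunit, lay between 73.7 and 87.4 CPM in M2 and between 108.6 and 121.9 CPM in M4 (0.47, SE 0.11, adjusted p = 0.00609); it was also called in all 11 fits without a library, though not with both left out (adjusted p = 0.0833). Processed copies of ribosomal protein genes are common in the genome, and how reads matching several places were counted is not given, so these levels are less certain than others. With offsets for transcript length and GC content, 20 of the 77 passed and the median was 0.13. Of 61 genes of oxidative phosphorylation 1 passed (Uqcrh, 0.31; not without library 56, adjusted p = 0.183) and of 34 proteasome genes 0, with medians of 0.085 and 0.092. These medians were 0.042 and 0.056 without library 56 and 0.0030 and 0.035 with the offsets, where 33 of the 61 and 21 of the 34 values were above 0 and 3 and 2 genes passed, all higher.

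Chaperones and folding enzymes of the ER were higher in M4, and library 56 was the highest of all for most of those named. Of 19 measured, 9 were higher and 0 lower (median 0.26): Ppib (0.39), Sdf2l1 (0.68), Calr (0.31), Pdia4 (0.40), Dnajb11 (0.31), Hspa5 (0.34), Pdia6 (0.26), Creld2 (0.49) and Xbp1 (0.29), the transcription factor of the response. Of all genes 6.28% were higher and 6.68% lower. Without library 56, 2 of the 19 passed (median 0.20), and with libraries 8 and 56 left out 0 passed (median 0.19). This family was also formed after the values had been seen, and the list written earlier that holds heat shock and cold-inducible genes gave 7 higher and 0 lower of 25 (Calr, Creld2, Hspa5, Pdia4, Pdia6, Sdf2l1 and the mitochondrial Hspe1), 0 of them without library 56.

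Hspa5, the ER chaperone BiP, stood at 257.1, 236.8, 253.9, 196.2, 254.4 and 248.5 CPM in M2 and at 388.3, 313.5, 263.2, 274.9 and 275.9 CPM in M4 (SE 0.10, adjusted p = 0.0208). All M4 libraries were above M2, but 3 of the 5 by a small margin, and the injured SB libraries 56 and 57 by most; without library 56 the log2 fold change was 0.24 (adjusted p = 0.153). Calr, the calcium-binding chaperone calreticulin, lay between 323.4 and 374.4 CPM in M2 and between 395.8 and 514.1 CPM in M4, again highest in library 56. Sdf2l1 stood at 5.45 to 7.70 CPM in M2 and at 15.6, 13.0, 8.73, 8.18 and 8.00 CPM in M4.

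Genes of this family are known for the ER stress response element in their promoters, CCAAT and CCACG parted by 9 bases, and the following stretches show it in the 4 called genes that hold it. They were read from RefSeq promoters (GRCm38.p6, 250 bases before to 50 after the start), 5′ to 3′ on the gene's strand with 20 bases on each side, and capitals mark the element, which lies on the opposite strand in Calr and Creld2.
Hspa5 (chr2:34772005-34772063, plus strand): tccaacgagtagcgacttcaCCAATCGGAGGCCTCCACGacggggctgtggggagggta
Pdia6 (chr12:17266471-17266529, plus strand): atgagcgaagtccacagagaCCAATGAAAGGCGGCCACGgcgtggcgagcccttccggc
Calr (chr8:84847055-84847113, minus strand): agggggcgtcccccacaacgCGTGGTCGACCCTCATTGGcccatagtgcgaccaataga
Creld2 (chr15:88819500-88819558, plus strand): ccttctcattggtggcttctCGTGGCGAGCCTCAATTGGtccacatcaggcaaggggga
The search for both parts at this spacing, on both strands, matched 4 of 9 called and 3 of 8 other genes of the family with a promoter entry (44.4% and 37.5%), and 37 of all 27025 genes (0.137%). The 3 that hold it and did not pass were Canx (log2 fold change 0.029), Dnajc3 (0.12) and Hsp90b1 (0.20). The element was thus about as frequent in members that passed as in those that did not, and a match is not a shown binding site.

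Sterol synthesis and uptake genes were lower in M4. Of 20 measured, 10 passed, all lower, beside 6.68% of all genes. All 20 had a value below 0 (median -0.26). In the 10 that passed every M4 library was below every M2 library, beside 8.25% of all genes. The summed level was 1829 to 2085 CPM in M2 and 1478 to 1633 CPM in M4. Between 8 and 10 members passed whichever library was left out, and 5 with libraries 8 and 56 both left out (median -0.23).

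The members that passed include enzymes and their regulators. Hsd17b7, a late enzyme of the pathway, stood at 34.1, 38.2, 32.5, 35.6, 33.4 and 35.8 CPM in M2 and at 25.0, 22.3, 24.0, 25.9 and 25.4 CPM in M4 (log2 fold change -0.50, SE 0.10, adjusted p = 0.00140). Both cohorts were narrow, and all M4 libraries were below M2. Insig1, which holds the SREBP complex in the ER, lay between 104.0 and 124.0 CPM in M2 and between 70.2 and 94.7 CPM in M4 (-0.43, SE 0.08, adjusted p = 0.00149). Srebf2, the transcription factor itself, was lower as well (log2 fold change -0.34, adjusted p = 0.0115). Idi1 (-0.47), Stard4 (-0.45), a sterol carrier, Sqle (-0.30) and Hmgcs1 (-0.29) passed too. Acly, which makes the acetyl-CoA that feeds the pathway and is not in the list, was at 198.6 to 237.7 CPM in M2 and at 149.2 to 175.6 CPM in M4 (-0.41, adjusted p = 0.00119).

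The promoter of Hmgcs1, an early enzyme of the pathway, holds the sterol regulatory element in the form TCACNCCAC, shown here in capitals in the same RefSeq build.
Hmgcs1 (chr13:119690194-119690242, plus strand): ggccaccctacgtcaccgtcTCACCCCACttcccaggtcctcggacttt
Searched on both strands, this form was found in 1 of the 14 members with a promoter entry (7.14%) and in 388 of 27025 genes (1.44%). The finding that no other member matched concerns these letters in these promoter windows only.

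Genes of neuronal excitability and synapses were lower in M4, each list by a minority of its members. Of 34 ion channel genes 11 were lower and 1 higher (Kcnn2, 0.31; list median -0.21), of 32 glutamate and GABA receptor genes 8 lower and 0 higher (-0.19), and of 26 presynaptic genes 6 lower and 0 higher (-0.16). The shares over all genes were 6.68% lower and 6.28% higher. Without library 56 the numbers lower in these lists were 5, 0 and 1, without library 8 they were 5, 2 and 1, and without both 3, 0 and 0.

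Among channels, Cacna1i, a T-type calcium channel, lay between 178.0 and 211.4 CPM in M2 and between 120.0 and 158.6 CPM in M4 (-0.49, SE 0.10, adjusted p = 0.00144). Kcnh1, a voltage-gated potassium channel, lay between 123.8 and 153.2 CPM in M2 and between 74.8 and 89.1 CPM in M4 (-0.69, SE 0.14, adjusted p = 0.00158). The fast-spiking channel Kcnc1 (-0.36), the axonal Kcna1 (-0.79) and the sodium channel Scn1a (-0.56) passed as well. The M2 libraries were close together for Kcnc1, at 287.8 to 302.6 CPM, and the M4 libraries lay at 200.1 to 264.9 CPM, lowest in library 56.

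Among receptors, the GABA-A subunit Gabrb2 (-0.74), the GABA-B subunits Gabbr1 (-0.16) and Gabbr2 (-0.34), and the glutamate receptors Grin3a (-0.44), Grin2b (-0.47) and Grm5 (-0.38) were lower (adjusted p from 0.0161 to 0.0467). Gabbr2 lay between 436.8 and 484.8 CPM in M2 and between 312.6 and 403.4 CPM in M4. On the presynaptic side Syt2 (-0.54), a fast calcium sensor, Bsn (-0.52) of the active zone, the fusion protein Nsf (-0.29) and the vesicle protein Sv2b (-0.37) were lower. Map1a, a microtubule protein of neurons, averaged 2425 ± 185 CPM in M2 and 1532 ± 217 CPM in M4 (SD, n = 6 and 5; -0.60, SE 0.14, adjusted p = 0.00440). Of 27 axonal cytoskeleton genes 2 were lower, Map1a and Sptan1, and 0 higher, beside 6.68% and 6.28% of all genes. The number lower was thus near that of genes at large, and the list's median was -0.068 with 8 values above 0. Sptan1 did not pass without library 56 (adjusted p = 0.160), and with libraries 8 and 56 both left out 0 of the 27 passed.

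Of 31 protocadherins and cadherins, adhesion proteins that pattern neuronal contacts, 9 were lower and 0 higher (median -0.23; 2 lower without library 56, and 0 with both libraries left out). Pcdh7 lay between 239.9 and 314.9 CPM in M2 and between 167.6 and 203.0 CPM in M4 (-0.58, SE 0.15, adjusted p = 0.00808). Pcdhga12 (-0.50) and Pcdhgc5 (-0.68) share constant exons with the rest of their cluster, so how their reads were divided is uncertain. This family too was formed after the values had been seen, and 6.68% of all genes were lower.

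Markers of inhibitory neurons were lower in M4, in part. Of 14 measured, 5 passed, all lower (median -0.24), beside 6.68% of all genes. Among the 5 were Gad1 and Gad2, which make GABA, Slc32a1, which loads it into vesicles, and Reln. In bulk RNA, fewer cells of a type and less RNA per cell cannot be told apart. Gad1 stood at 435.7, 505.7, 450.1, 483.8, 423.1 and 504.3 CPM in M2 and at 373.5, 373.6, 359.7, 386.9 and 385.5 CPM in M4 (-0.29, SE 0.07, adjusted p = 0.00796). Reln, secreted by interneurons, had the largest difference of the 5, with 86.3 to 108.8 CPM in M2 and 44.3 to 73.5 CPM in M4 (-0.61, SE 0.16, adjusted p = 0.00967). Of the 5, 4 did not overlap between the cohorts, while Slc32a1 did (89.5 to 133.8 CPM in M2 and 66.7 to 91.4 CPM in M4). The other 9 listed genes did not pass. Of the 14 values 10 were below 0 and 4 above, the highest at 0.41. Without library 56 the number lower was 2, without library 8 it was 4 and without both 0.

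For the other cell classes few or no genes passed, beside 13.0% of all genes (6.28% higher and 6.68% lower). With lists this short, such counts do not set these classes apart from all genes. Of 10 excitatory neuron genes 1 was lower (Rtn4rl2, -0.52, adjusted p = 0.0383; median -0.20); it passed in 3 of the 11 fits without a library and did not pass with length and GC offsets (-0.35, adjusted p = 0.0938) library totals alone (adjusted p = 0.0513) or the library total as a covariate (adjusted p = 0.0960). Of 11 upper layer genes 0 passed although all 11 values were below 0 (median -0.19), and of 13 deep layer genes 0 passed (-0.016). Of 15 astrocyte, 16 homeostatic microglia and 16 p38 pathway genes 0 passed in each (medians 0.0075, 0.016 and -0.15); Gfap, the astrocyte filament protein, differed by -0.0078 (adjusted p = 0.985). Of 14 endothelial genes 1 passed, Ly6c1, which was higher (0.62, SE 0.15, adjusted p = 0.00535). Of the endothelial values 7 were above and 7 below 0 (median -0.0034). Cldn5, of the same list, had every M4 library below every M2 library but did not pass (-0.46, adjusted p = 0.105). Of 4 mural genes the pericyte receptor Pdgfrb was lower (-0.49, SE 0.11, adjusted p = 0.00351; list median -0.14). Ly6c1 and Pdgfrb also passed with libraries 8 and 56 left out. Of 21 myelin and oligodendrocyte genes 0 passed although all 21 values were above 0 (median 0.32), and their summed level overlapped, with 5456 to 9623 CPM in M2 and 7107 to 14602 CPM in M4. Mobp, a myelin protein, was at 753 to 1246 CPM in M2 and 905 to 2065 CPM in M4 (0.64, adjusted p = 0.0851). Myelin is dense in the white matter beneath the cortex, and the summed myelin level was lowest in library 7 and highest in library 59.

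Genes of the striatum, which lies beneath the cortex, moved with library 8. Of 7 measured, 2 passed, both lower in M4, beside 6.68% of all genes. Among the 2 was the sodium channel subunit Scn4b (-1.09, SE 0.23, adjusted p = 0.00275). Scn4b stood at 149.7, 422.9, 159.6, 139.7, 104.2 and 190.9 CPM in M2 and at 104.5, 72.8, 74.0, 92.9 and 79.4 CPM in M4. The value of library 8 was far above the others, library 12 came next, and the groups just overlapped. The summed level of the 7 genes was 1721 CPM in library 8, 712 in library 12, 370 to 514 in the other M2 libraries and 327 to 412 in M4. Without library 8 the list's median went from -1.02 to -0.26; Scn4b still passed (-0.71, adjusted p = 0.0317), though not without both libraries 8 and 56 (adjusted p = 0.0534). Drd1, Drd2 and Adora2a, defining receptors of these neurons, were not analysed here.

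Library 56 of M4 held a choroid plexus gene at high level. Enpp2, which the choroid plexus secretes and oligodendrocytes also make, was the 1 measured of 10 listed choroid and ependymal genes and stood at 2358 CPM there against 219 to 387 CPM in the other 10 libraries (log2 fold change of the cohort 1.04, adjusted p = 0.0976; -0.018 without library 56). Ttr and Folr1, defining genes of that tissue, were not analysed here. Ranked by excess over the other 10 libraries after the values had been seen, the genes that followed Col9a3 and Enpp2 in library 56 were Ace (120.1 against at most 21.3 CPM), Sulf1 (89.5 against 18.4) and Igfbp2 (132.7 against 37.1). In library 8 the same ranking was led by Rgs9 (117.8 against at most 35.3 CPM) and Pde10a (356.5 against 131.8). Library 56 was also the highest for ER chaperones, at 3107 CPM summed against 2184 to 2638 CPM, and for ribosomal proteins, at 13855 against 10488 to 12642 CPM. The part of the neighbouring tissue in these lists was not tested beyond the values given without that library. Among 3 measured meningeal genes, Col1a2, a fibrillar collagen, was lower in M4 (10.7 to 18.5 CPM against 13.6 to 29.3 CPM in M2; -0.87, SE 0.24, adjusted p = 0.0130), and did not pass without library 56 (adjusted p = 0.0697).

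**Figure D3:**
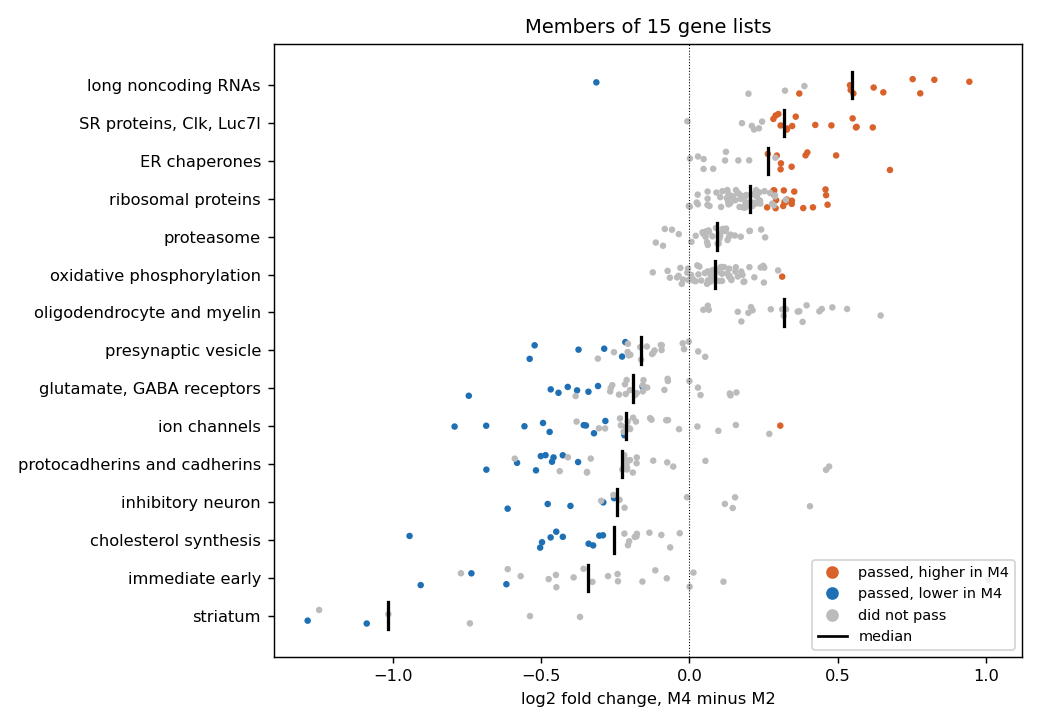
Log2 fold change, M4 minus M2, of each measured member of 15 gene lists (points; orange passed and higher, blue passed and lower, grey did not pass), with the median as a bar. Long noncoding RNAs have a median of 0.55 with 10 of 14 higher, sterol synthesis genes one of -0.26 with 10 of 20 lower.

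Of 22 measured immediate early genes, which respond to activity within minutes, 3 passed, all lower (median -0.34), beside 6.68% of all genes. The 3 were Jun (-0.62, SE 0.13, adjusted p = 0.00185), Dusp6 (-0.74, SE 0.18, adjusted p = 0.00609), a phosphatase of the ERK kinases, and Klf10 (-0.91, SE 0.22, adjusted p = 0.00613). The same 3 passed as lower without library 56, but the list's median was then -0.19. With libraries 8 and 56 both left out 2 genes passed as lower and 1 as higher. Dusp6 did not pass there (adjusted p = 0.0676), and the higher gene was Npas4 (1.25, adjusted p = 0.0492). Library 56 had the lowest summed level, at 1407 CPM against 1840 to 3005 CPM in the other 10. Jun stood at 46.9, 54.8, 62.9, 46.2, 55.1 and 43.4 CPM in M2 and at 27.4, 34.3, 39.3, 34.4 and 35.4 CPM in M4, without overlap. In M1 and M3 Jun lay at 37.0 ± 4.81 and 33.3 ± 3.98 CPM (SD, n = 6 each), near M4, and M2 was the higher cohort. Npas4, an activity-dependent factor of neurons, had the opposite sign and did not pass (1.01, adjusted p = 0.0525); it was at 16.2 to 30.4 CPM in M2, at 10.8 CPM in library 56 and at 44.0 to 70.4 CPM in the other M4 libraries, and passed without library 56 (1.29, adjusted p = 0.0177). Arc differed by -0.77 (SE 0.47, adjusted p = 0.267), with a wide spread in both cohorts (396 ± 121 and 231 ± 138 CPM, SD, n = 6 and 5).

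Stress hormone and clock genes passed in small numbers in each direction, with list medians of -0.020 and 0.0032. Of 17 glucocorticoid response genes 2 were higher, Mertk (0.48, adjusted p = 0.00182) and the leucine zipper gene Tsc22d3 (0.43, adjusted p = 0.0265), and 2 lower, the receptors Nr3c1 (-0.29, adjusted p = 0.0271) and Nr3c2 (-0.35, adjusted p = 0.00624). Tsc22d3 lay between 59.9 and 80.9 CPM in M2 and between 81.0 and 105.2 CPM in M4. Of 22 clock genes 2 were higher and 2 lower, beside 6.28% and 6.68% of all genes: the period genes Per2 (0.64, adjusted p = 0.0205) and Per3 (0.36, adjusted p = 0.0310) were higher, and Nr1d1 (-0.35, adjusted p = 0.0485) and Rora (-0.40, adjusted p = 0.0187) lower. The log2 differences of Per2 and Per3 were 0.79 and 0.52 in the injured SB libraries, 0.84 and 0.42 in the injured vehicle libraries, and 0.031 and -0.053 in the sham vehicle libraries, of which there was 1 per cohort. Nr1d1 passed in 2 of the 11 fits without a library, and among other settings did not pass with RLE factors (adjusted p = 0.0562), the replicate block (adjusted p = 0.0799) or library totals alone (adjusted p = 0.0801). Per2 overlapped between cohorts, at 31.4 to 51.9 CPM in M2 and 48.9 to 65.4 CPM in M4. The hour of killing is not in the labels. Without library 56 1 gene of each list was higher and 0 lower. Without library 8, 1 glucocorticoid response gene was higher and 1 lower, and 0 clock genes were higher and 1 lower. With both left out, 1 glucocorticoid response gene was higher and 0 lower, and 0 clock genes passed. Per2 passed in 7 and Per3 in 5 of the 11 fits without a library.

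Longer transcripts tended to be lower in M4. With 9634 genes in 10 classes of equal size by transcript length (GENCODE annotation, matched by symbol), the median log2 fold change went from 0.083 in the shortest class to -0.095 in the longest. The share of genes called lower went from 0.311% in the shortest class to 12.6% in the ninth and 11.4% in the longest, while the share called higher stayed between 4.36% and 7.99%. Called lower genes had a median length of 4900 bases, called higher genes 3645 and all genes 3726. Across genes, which are not independent replicates, Spearman's rho of the fold change was -0.24 with length, -0.25 with the mean log2 CPM of the gene and -0.095 with GC content. With offsets for length and GC in the fit, 1020 genes were higher and 1019 lower, 571 and 576 of them also called without offsets, and rho with length was -0.048.

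**Figure D4:**
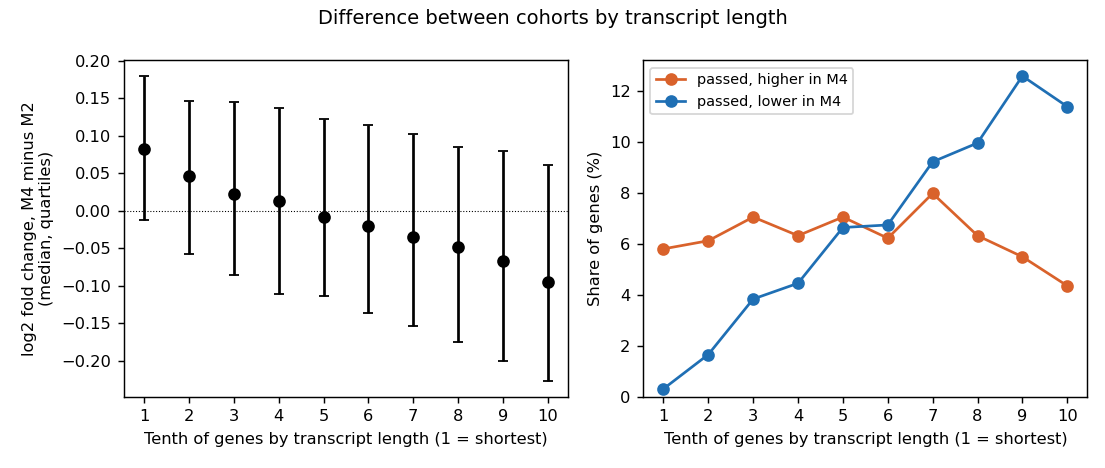
Left, median log2 fold change (M4 minus M2) with quartiles, and right, share of genes called in each direction, for 10 classes of genes by transcript length. The median goes from 0.083 to -0.095, and the share called lower from 0.311% in the shortest to 11.4% in the longest class.

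M4 differed from the mean of M1 and M3 in 189 genes (1.96%), 93 higher (0.965%) and 96 lower (0.996%), and M2 from the same mean in 2 genes (0.0208%), Jun higher (0.0104%; 0.56, adjusted p = 0.00855) and the clock gene Ciart lower (0.0104%; -0.62, adjusted p = 0.0184). The first count depended on the M4 libraries, with 117, 54 and 11 genes called without libraries 57, 58 and 59, 2 without library 56 and 0 without library 61; it was 87 without the M2 library 12. The second was 0 or 1 without libraries 7, 8, 9, 10 or 11. For the 605 genes higher in M4 than M2, the median difference from M1 and M3 was 0.23 in M4 and -0.15 in M2, and for the 644 lower genes -0.22 in M4 and 0.11 in M2. These 2 comparisons share M1 and M3, and the genes were chosen on M4 and M2, so the values are a description. Slitrk1, for example, was at 129.1 ± 16.2 CPM in M1 and 118.8 ± 10.1 CPM in M3 (SD, n = 6 each), between M2 and M4.

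Some list medians lay on opposite sides of M1 and M3 in M4 and M2. Long noncoding RNAs differed from M1 and M3 by 0.30 in M4 and -0.21 in M2, SR proteins and Clk kinases by 0.18 and -0.14, and sterol genes by -0.12 and 0.17. ER chaperones were at 0.21 in M4 and -0.022 in M2, and inhibitory neuron genes at -0.21 and 0.0050. In both of these lists M2 lay close to M1 and M3, and M4 was the cohort apart. Striatal genes were at -0.24 in M4 and 0.52 in M2, the latter with library 8 in it. Other lists lay on one side in both cohorts: immediate early genes at 0.035 in M4 and 0.40 in M2, myelin and oligodendrocyte genes at 0.45 and 0.11, clock genes at -0.13 and -0.099 and deep layer genes at 0.059 and 0.10.

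Between single male cohorts few genes were called other than between M2 and M4: 49 for M4 against M3 (0.509%), 4 for M2 against M1 (0.0415%) and 1 for M3 against M2 (0.0104%). For M4 against M1 and for M3 against M1 edgeR called 0, with 1388 and 352 genes at an unadjusted p under 0.05. The score of the called genes, the mean log2 CPM of the 605 higher minus that of the 644 lower genes, ranged from -1.80 to -1.49 in M2 and from -0.95 to -0.67 in M4. Its median was -1.36 in M1 and -1.33 in M3, and in the female cohorts, which entered the fit's estimates of spread but not the contrast, -1.40 in F1, -0.996 in F2, -1.25 in F3 and -0.67 in F4. Thus F4 lay above M4 and F2 just below it, and 1 library of F3 reached -0.43. Between female cohorts 332 (F4 against F2) to 4164 genes (F4 against F1) were called. Cohorts M4 and F4 had the lowest median library totals, at 31003691 and 31645554 counts, against 35491503 or more in the other 6; with the library total as a covariate, added after seeing the data, 335 genes were higher and 397 lower in M4 than in M2.

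**Figure D5:**
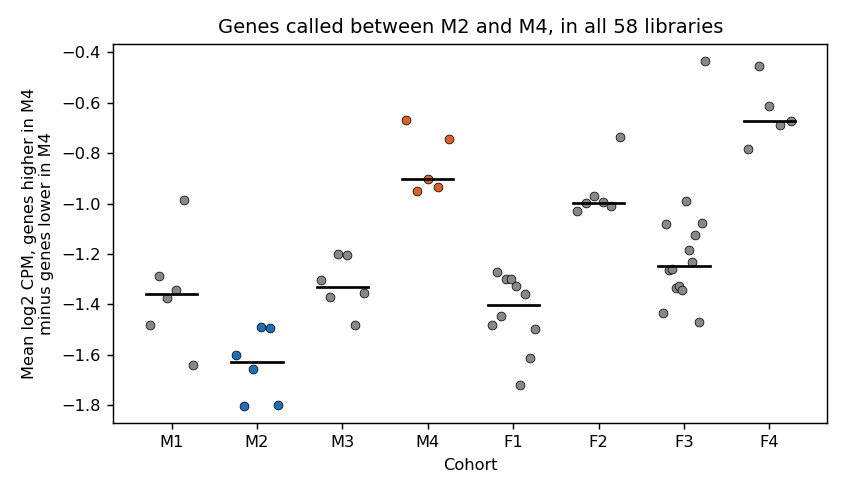
Mean log2 CPM of the 605 genes higher in M4 minus that of the 644 genes lower, for each of the 58 libraries by cohort (bars, medians). M2 lies lowest of the male cohorts (median -1.63) and M4 highest (-0.90) by the choice of genes; among females F1 lies lowest (-1.40) and F4 highest (-0.67).

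Whether the treatment or the injury acted differently in the cohorts was tested as an interaction. No gene passed for SB in injured mice (0.00% called; edgeR 0 genes, 352 at an unadjusted p under 0.05, smallest adjusted p 0.916; DESeq2 0 and 386), with 2 libraries per cohort and treatment. Among the genes of smallest p were Slc35b3 (0.82, SE 0.21), Galk1 (0.89) and Cyp2u1 (0.73), for which the difference of SB from vehicle was higher in M4, and Rasgrp3 (-0.97, SE 0.26) and Rad50 (-0.86), for which it was lower (log2 values; adjusted p = 0.916 for each by edgeR). Slc35b3, a solute carrier, stood at 11.7 and 10.7 CPM with SB and 12.9 and 14.7 CPM with vehicle in injured M2 mice, and at 16.4 and 15.3 against 11.1 and 11.0 CPM in injured M4 mice.

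For injury in vehicle mice, with 2 injured and 1 sham library per cohort, no gene passed either (0.00% called; edgeR 0 genes, 49 at an unadjusted p under 0.05, smallest adjusted p 1; DESeq2 0 and 56). The lone sham libraries are assumed to vary like the other cells of the design. The genes of smallest p were Cbfb (0.70, SE 0.25), Myadm (0.58) and Limd1 (0.68) with a higher and Prss23 (-0.85, SE 0.27), Slc35b3 (-0.81) and Nsmce3 (-0.62) with a lower difference in M4. The injured vehicle libraries of both cohorts enter this interaction and that of SB with opposite sign. The values of Slc35b3 in the SB and injury tests are therefore not independent. These tests do not show that SB or injury had like effects in the cohorts.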

How the data were processed

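Bulk polyadenylated RNA of mouse somatosensory cortex was analysed from 1 deposited table of raw read counts, 9636 genes by 58 libraries. Per the labels' protocols, RNA was isolated with a Qiagen RNeasy kit and libraries were made with NEBNext Ultra II Directional reagents. Per the submitters' processing notes, the authors used STAR, featureCounts and DESeq2 with GRCm39/mm39; their versions, the annotation and the strand setting are not stated. No deposited count is below 101 and no gene's mean is below 270.1, so genes of low count were left out before deposit, by a rule not given, and the totals are not the full depth.

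These counts entered edgeR 4.0.16 under R 4.3.3 (TMM, robust quasi-likelihood) over all 58 libraries, with 8 groups of sex, injury and treatment and the cohort within sex (14 coefficients, 44 residual degrees of freedom); filterByExpr removed 0 genes. The M4 minus M2 contrast therefore uses condition effects estimated over all male cohorts, which is how the sham SB library of M2 enters. Interactions were tested with a mean for each of the 28 cells of cohort and condition (30 residual degrees of freedom). P-values were two-sided and adjusted by Benjamini-Hochberg over all genes at 0.05. Log2 CPM used a prior count of 2. DESeq2 1.42.0 and limma 3.58.1 served as alternatives.

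Cohorts, gene lists and tests were chosen with earlier results of these data known, and 6 families defined by symbol were added after the values had been seen. Genes were named by rule: 12 per direction by smallest p, 3 per direction by largest fold change, up to 4 of smallest p per list, and 3 per direction for each interaction; further called members of a list, and the members named without passing, such as Arc, were added after their values were seen. Some genes that the rule names are not reported here; counts and medians of lists include them. The scripts were tested on simulated data. Libraries of the same cohort and condition differed by far more than sampling noise (chi-square per degree of freedom 19.1 or more), so each counts as 1. Shared replicate numbers did not pair the libraries. Transcript length and GC content came from a GENCODE annotation of an earlier build by symbol (2 genes unmatched), and promoters from RefSeq.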

Additional observations from a re-analysis of the deposited data

Results flagged for a closer look

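Of 54 groups of libraries tested for an extreme one (26 genes and the library total in each cohort), 5 passed Dixon's critical value. The critical values are 0.625 for 6 libraries and 0.710 for 5, which chance passes in about 1 in 20 groups not chosen by their values. The genes here were those of smallest p or largest fold change in these data, and an extreme library can enlarge a fold change. The 1 in 20 therefore does not strictly hold for them. In M4, Col9a3 (gap over range 0.965) stood at 125.1 CPM in library 56 against 17.1 CPM in the next, and Ctnnal1 (0.772) at 68.0 against 47.7 CPM, also in library 56. In M2, Scn4b (0.728) stood at 422.9 against 190.9 CPM in library 8. In M2, Mlip (0.901) stood at 81.6 against 64.1 CPM and Cfap69 (0.741) at 22.7 against 19.2 CPM, both in library 7. Mlip, Cfap69 and Ctnnal1 passed between the cohorts whichever library was left out.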

How the results depend on the processing

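No called gene reversed under any of the alternatives run. The counts of genes higher and lower in M4 than in M2 were 908 and 427 with library totals as the only scaling, 1095 and 993 in the 11 libraries alone, 1020 and 1019 with length and GC offsets, 1430 and 1699 with limma voom and quality weights, and, both added after seeing the data, 335 and 397 with the library total as a covariate and 112 and 52 without libraries 8 and 56. Leaving out 1 library gave 293 to 614 higher and 159 to 632 lower. M4 differed from the mean of M1 and M3 in 675 genes within the 23 male libraries, 369 with DESeq2, and 0 to 182 without 1 library; M2 did in 1, 4 and 0 to 2. DESeq2 called 788 genes higher and 664 lower in M4 than in M2.

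With the replicate number as a block, 474 genes were higher and 488 lower, and the counts against M1 and M3 were 103 for M4 and 0 for M2. The numbers are no pairing: libraries of the same number had a median correlation of deviations of -0.014 (62 pairs) and others 0.018 (559 pairs). With 5 and 6 libraries, genes that did not pass are not shown to be alike.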
